A study of Homo sapiens with 8 samples.

Results

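GPR110, the gene now called ADGRF1, encodes an adhesion G protein-coupled receptor. Its signal was examined in HCT116 cells, a human colorectal cancer line, with and without 5-aza-2'-deoxycytidine (5-aza-dC). The gene was chosen by the size of its change: its probe had the largest decrease after 5-aza-dC in the control clones. Its values in those clones are therefore given as a description, with no test. All probes that the array files name GPR110 were used, which gave 2 probes for 1 of 34423 gene names.

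Adhesion receptors carry a long extracellular region that cuts itself at a site near the membrane, and the stub left behind can act as a tethered agonist on the membrane-spanning domain. GPR110 is known to respond to N-docosahexaenoylethanolamine, an N-acylethanolamine made from docosahexaenoic acid, and to signal through the stimulatory G protein to cyclic AMP. 5-aza-dC is a nucleoside analog that is built into DNA and traps DNA methyltransferases, so that methylation is lost as cells divide.

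RNA from 4 stable clones was hybridized to 8 one-color arrays, 1 for each clone and treatment. CONT1 and CONT2 carried the control plasmid pcDNA6.2-GW/EmGFP-miR-neg, whereas TET1-KD1 and TET1-KD2 carried a TET1 knockdown vector, which expresses an artificial miRNA against TET1, a methylcytosine dioxygenase. All clones were selected with G418, and each was analyzed without drug and after 72 h in 1 µM 5-aza-dC. Each clone was grown from 1 colony, so the 2 arrays of a condition (n = 2) are 2 different clones, and each clone and treatment was measured once. A field of the labels gives mock treatment for every control array and 5-aza-dC for every knockdown array, which conflicts with the titles. The titles were followed. Both arrays of treated control clones were on a slide of their own, scanned 230 days after the slide with the other 6, so slide and treatment cannot be told apart in the control clones, whereas the 4 arrays of knockdown clones shared a slide. The range of 75th percentiles, by which the arrays were scaled, was 396 to 624 intensity units.

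The labels were checked first with TET1 and with cell type markers. The brightest TET1 probe read 9.70 and 9.75 on the log2 scale in untreated CONT1 and CONT2, and 8.65 and 9.41 in untreated TET1-KD1 and TET1-KD2. After 5-aza-dC it read 9.64 in both control clones, 8.99 in TET1-KD1 and 9.48 in TET1-KD2. The knockdown clones were thus lower on every array, more so TET1-KD1, but the untreated difference of -0.69 (SE 0.289) did not pass the test (limma adjusted p = 0.610). Of 7 colorectal epithelial markers 6 (EPCAM, CDH1, KRT8, KRT18, KRT19 and CDX2) were well above background on all 8 arrays, and VIL1 on 2. Their summed signal ranged from 327075 to 360104 on the untreated arrays and from 327604 to 395615 on the treated arrays. In control clones EPCAM (-0.89) and KRT8 (-0.75) fell and KRT18 rose (0.61), and none of these passed in knockdown clones. With the arrays scaled by spike-in RNAs, only KRT8 of these 3 passed in control clones. Among leukocyte markers, CD14 rose by 2.75 on the log2 scale in control clones and 1.60 in knockdown clones, PTPRC rose by 1.56 in control clones and read 0.08 in knockdown clones, where it did not pass, and CD3E was well above background on 1 array. The summed signal of 5 fibroblast markers was 342 to 451 untreated and 630.1 to 902 treated, with COL1A2 and COL3A1 not well above background on any array. For 3 endothelial markers it was 94.6 to 115 untreated and 193 to 286 treated, but they did not move together. In control clones the log2 mean went from 5.20 to 7.47 for VWF and from 6.18 to 4.08 for CDH5. In knockdown clones it went from 4.60 to 7.29 for VWF and from 6.15 to 5.87 for CDH5. PECAM1 was well above background on treated arrays only. The part of these markers in the GPR110 values was not tested.

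The array annotation assigns the GPR110 probes to different transcripts, and whether either probe also reads the other transcript was not checked. The bases each probe begins with are shown because the results differ between the probes. The probe for transcript variant 1 (NM_153840) lies on chromosome 6 at 46967845 to 46967904 of hg19, on the minus strand. The probe for variant 2 (NM_025048) lies 20571 bases upstream of it, at 46988475 to 46989702 on the same strand. Its 60 bases span 1228 bases of the genome, so it crosses an intron and reads spliced RNA. The first 30 of the 60 bases of each probe are given 5′ to 3′ in lower case.
Variant 1 probe: acaaatgtcaatgaagaaattatgctcagt
Variant 2 probe: gaaattcaacttaaaaaagcatatgaaaga
Both probes are poor in G and C, at 36.7% for variant 1 and 35.0% for variant 2.

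DNA methylation lies mainly on CG dinucleotides, so the promoter sequence is shown as context. RefSeq holds 1 promoter entry for ADGRF1. Its 250 bases before the start site lie at chr6:47042333-47042582 of GRCh38.p14, on the minus strand, and are printed 5′ to 3′ with each CG in capitals.
ADGRF1 promoter: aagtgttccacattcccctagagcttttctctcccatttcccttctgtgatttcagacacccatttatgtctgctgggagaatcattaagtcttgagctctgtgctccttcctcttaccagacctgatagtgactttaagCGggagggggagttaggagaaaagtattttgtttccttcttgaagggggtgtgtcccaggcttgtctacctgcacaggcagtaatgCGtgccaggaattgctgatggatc
The window held 2 CG, which begin 110 and 24 bases before the start site. CG reads the same on both strands and overlaps no other motif searched. Among 35116 promoter entries, 93.9% held at least 1 CG in this window, the median was 11, and 22.9% held at most 2. Methylation was not measured on these arrays.

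Among the untreated clones, GPR110 was a bright gene. The scaled signal of the variant 1 probe was 2898 for CONT1 and 1995 for CONT2, against 5268 for TET1-KD1 and 3440.1 for TET1-KD2. These values lay between the 88.7th and the 93.8th percentile of all probes. On the log2 scale the mean was 11.23 ± 0.38 (SD, n = 2) in control clones and 12.06 ± 0.43 (SD, n = 2) in knockdown clones. The difference, knockdown minus control, was 0.82 (SE 0.947). The clones did not overlap by this probe, but by the variant 2 probe untreated TET1-KD2 (54.2) was below CONT1 (55.5). The difference has no test, since the control arrays were used to choose the gene.

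After 5-aza-dC the variant 1 probe was low in 3 of 4 clones. The control clones CONT1 and CONT2 read 49.0 and 54.6, TET1-KD1 read 909 and TET1-KD2 read 97.8, and the probe stayed well above background on all 8 arrays. In every clone the treated culture was below the untreated one, by 59.1-fold (CONT1), 36.5-fold (CONT2), 5.80-fold (TET1-KD1) and 35.2-fold (TET1-KD2). By this probe TET1-KD1 kept the most, at 17.3% of its untreated value. By the variant 2 probe no treated culture was well above background, TET1-KD1 included. TET1-KD1 also had the lowest TET1 signal and the highest untreated GPR110 signal, and a link between these was not tested. As RNA was pooled over all cells of a culture, fewer cells with GPR110 RNA and less of it per cell cannot be told apart.

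**Figure D1:**
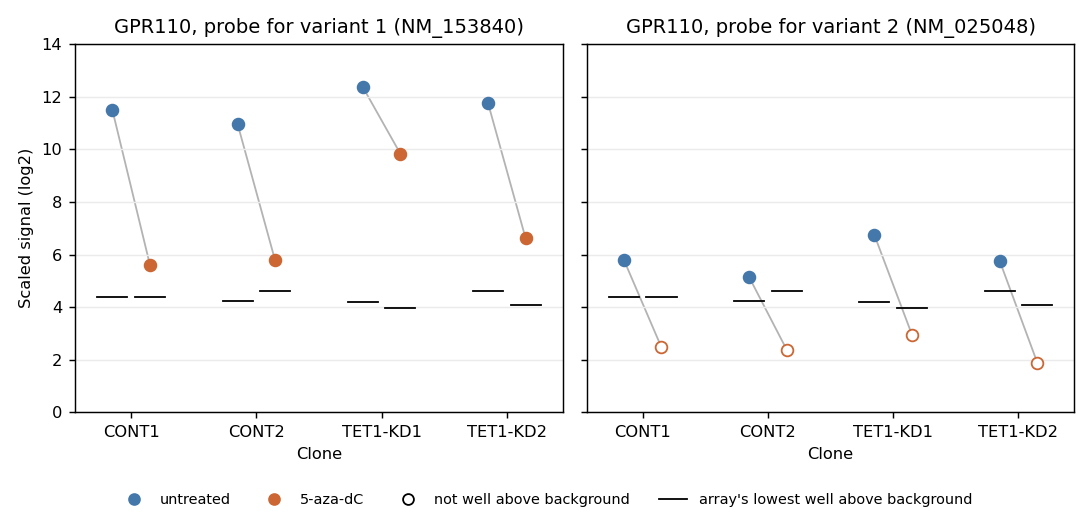
Scaled signal of the GPR110 probes (log2, vertical axis) in each clone, untreated and after 5-aza-dC, with the variant 1 probe on the left and the variant 2 probe on the right. Each point is 1 array, gray lines join the arrays of a clone, open points are not well above background, and black bars mark the lowest signal that was well above background on that array. The treated value of the variant 1 probe is 9.83 in TET1-KD1 and between 5.61 and 6.61 in the other clones.

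In control clones the mean log2 signal of the variant 1 probe was 5.69 ± 0.11 (SD, n = 2) after 5-aza-dC, which is -5.54 (SE 0.947), or 46.5-fold below the untreated mean. This was the largest decrease of all 27287 probes tested, the value the gene was chosen for. The next was an unnamed probe at -4.96, followed by PRIMA1 at -4.41, a membrane anchor of acetylcholinesterase, and the transcript XLOC_010662 at -4.31. GPR110 had rank 1 under 18 of 19 alternatives, and rank 5 without the untreated array of CONT1. As the gene was chosen by this rank and many alternatives leave its difference unchanged, the ranks are only a description. For background, 22.6% of all probes decreased in the control clones at a limma adjusted p below 0.05. Before scaling, spike-in RNAs were dimmer on the slide of the treated control arrays. The 75th percentiles of these arrays were also lower, at 396 and 476, against 546 to 624 on the other slide. The GPR110 values are scaled by them, so part of the dimming is already taken out of those values. The unscaled spike-in levels and differences below can thus be set beside GPR110 only roughly. The difference was -0.60 at a log2 level of 11.13, near that of untreated GPR110. At the levels of 9.36 and 7.91, between those of untreated and treated GPR110, the difference was -1.004. At 4.69, below that of treated GPR110, it was -0.48, by a spike-in not well above background on every array. With the arrays put on a common spike-in scale the GPR110 difference was -4.74.

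The size of change that chose the gene came from the control arrays, so the test is given for the knockdown clones. It is not fully independent of the choice. Its estimate of the spread comes from all 8 arrays, and the gene was chosen with earlier results of these data known. The variant 1 probe had a mean of 8.22 ± 2.27 (SD, n = 2) after 5-aza-dC, and its difference was -3.84 (SE 0.947, 95% interval -6.13 to -1.54), or 14.3-fold. It did not pass the threshold of 0.05 (limma adjusted p = 0.0511). With the clone as a block, it passed (limma adjusted p = 0.0384). Among all 27287 probes it was the third largest decrease, and 2.9% of the probes decreased past the threshold in these clones.
The value depended on which knockdown clone was kept. Without the treated TET1-KD1 array the difference was -5.44 (limma adjusted p = 0.00104) and its rank by size 1. Without the treated TET1-KD2 array it was -2.23 (limma adjusted p = 0.0272) and its rank 27. In both cases the remaining treated array was assumed to vary like those of the other conditions.

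The variant 2 probe was dim. Its scaled signal before treatment was 55.5 for CONT1, 35.2 for CONT2, 106.7 for TET1-KD1 and 54.2 for TET1-KD2. After 5-aza-dC it was 5.53 and 5.20 in these control clones, 7.72 in TET1-KD1 and 3.72 in TET1-KD2. It was well above background on the 4 untreated arrays and on none of the 4 treated arrays, so the treated signals are only upper bounds and have no order.
In knockdown clones the variant 2 probe was lower by at least 4.64-fold after treatment, against the lowest signal that was well above background (limma adjusted p = 0.00373). The measured log2 means were 6.25 ± 0.69 untreated and 2.42 ± 0.75 (SD, n = 2) treated. The probe was tested because it was well above background on untreated arrays, so its direction is not independent of that filter. With no filter on dim probes its limma adjusted p was 0.00864. In control clones the bound was at least 1.96-fold, from a log2 mean of 5.47 ± 0.46 untreated to 2.42 ± 0.06 treated, given with no test. Under normexp background correction, which lifts dim spots, the difference in knockdown clones was -0.998 (limma adjusted p = 0.0198) and that in control clones -0.37.

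Over the 8 arrays the probes had a Pearson r of 0.923, a description in which they share arrays and scaling and in which the treated variant 2 values are bounds.

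**Figure D2:**
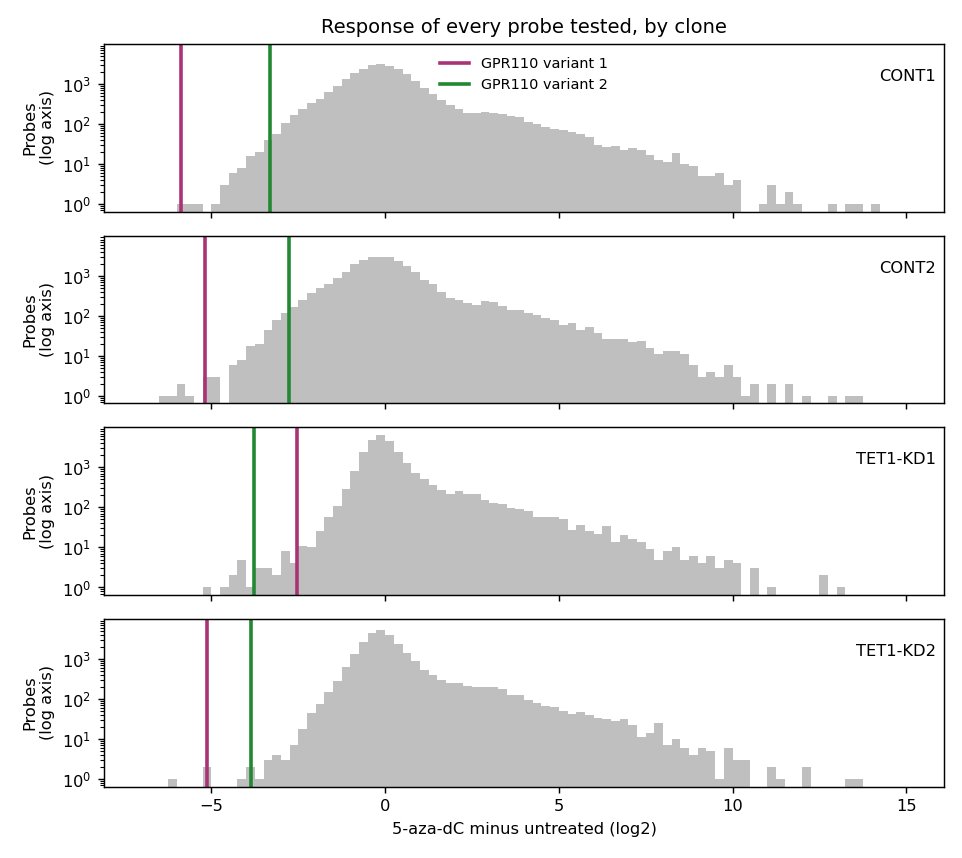
Number of probes (vertical log axis) by their response, 5-aza-dC minus untreated on the log2 scale (horizontal axis), in each of the 4 clones over the 27287 probes tested. Colored lines mark the GPR110 probes, which lie (variant 1, then variant 2) at -5.89 and -3.33 for CONT1, -5.19 and -2.76 for CONT2, -2.54 and -3.79 for TET1-KD1, -5.14 and -3.87 for TET1-KD2, with no treated variant 2 signal well above background.

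Probes of like brightness or base composition had median responses near 0. The 4339 probes whose untreated control signal was within 1 log2 unit of the variant 1 probe had median responses of -0.17 and -0.19 in CONT1 and CONT2, and -0.17 and -0.20 in TET1-KD1 and TET1-KD2. Their 1st percentile was -1.96 in control clones and -1.12 in knockdown clones. The 8426 probes with a GC content within 2.5 percentage points had medians of 0.13 in each control clone, -0.06 in TET1-KD1 and -0.12 in TET1-KD2. For the variant 2 probe, the 5782 probes of like signal had a 1st percentile of -2.98 in control clones, close to its own -3.04, and of -1.37 in knockdown clones.

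The conditions can be put in order by the variant 1 signal: untreated knockdown clones, untreated control clones, treated knockdown clones, treated control clones. The untreated conditions were 0.82 apart, against SDs of 0.43 and 0.38, and the treated conditions were 2.53 apart (SE 0.947), against SDs of 2.27 and 0.11. The response of knockdown clones minus that of control clones was 1.70 (SE 1.34). These differences use the control arrays and have no test. The treated difference of the variant 1 probe was 0.92 without the treated TET1-KD1 array and 4.13 without the treated TET1-KD2 array.

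The rest of the adhesion receptor family was changed about as often as all genes, in both directions. Of 32 other adhesion receptor genes, all on the array, 19 had a tested probe, and the brightest such probe stood for each. In knockdown clones 2 rose and 1 fell (15.8% of 19), against 12.5% of all genes tested in either direction. The median response of the 19 genes was -0.01, and that of all 19688 genes tested was -0.06. With the clone as a block 3 rose and 2 fell, and with the 4 knockdown arrays alone the count was 0. Over all 27287 probes these settings called 4030 and 1687, against 3220 in the main fit. In control clones 3 rose and 4 fell (36.8%), against 41.8% of all genes, with a median of -0.22 against -0.05, and the count was 4 without any single control array. The spike-in scale raised the median response of all probes in control clones from -0.08 to 0.38, with 8929 probes up and 2274 down against 5234 and 6168, and on it 7 of the receptors rose and 2 fell. In untreated cells 0 of the 19 passed in limma between knockdown and control clones, against 0.0203% of all genes. At an unadjusted p below 0.05 in limma there were 6 (1 higher, 5 lower), against 2253 of all 27287 probes tested.

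GPR110 belongs to group VI of the family. Its relatives GPR111, GPR115 and GPR116 had no probe that was well above background on any of the 8 arrays, before or after 5-aza-dC.

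Among the other receptors, BAI1, which binds phosphatidylserine on dying cells, rose in both kinds of clone. Its log2 signal went from 9.14 to 10.53 (CONT1), 8.65 to 10.69 (CONT2), 7.71 to 9.15 (TET1-KD1) and 7.84 to 10.31 (TET1-KD2). The difference was 1.72 in control clones (limma adjusted p = 0.0144) and 1.95 in knockdown clones (limma adjusted p = 0.0249), and every treated array was above the untreated array of its clone. GPR98, a very large receptor mutated in a form of Usher syndrome, rose by 1.05 (SE 0.235) in control clones and 1.62 (SE 0.235) in knockdown clones. GPR133, which couples to the stimulatory G protein, rose by 2.98 (SE 0.914) in control clones. It met the filter for testing only through treated arrays, so its direction is not independent of that filter. In knockdown clones its rise was at least 4.31-fold but did not pass (limma adjusted p = 0.0744), and a second, dimmer probe of the gene was at -0.53 and 0.29.
GPR125 fell in both, by a log2 difference of -0.98 (SE 0.159) in control clones and -1.01 (SE 0.159) in knockdown clones. Its dimmer probe read -1.20 and -0.70, and only the first passed. EMR2, a receptor of myeloid cells, was at -1.20, GPR97, a receptor of granulocytes, at -2.30, and GPR124, a partner in Wnt signaling of brain vessels, at -1.82 in control clones, where each fell. On the spike-in scale EMR2 (-0.56, limma adjusted p = 0.0634) and GPR124 (-1.15, limma adjusted p = 0.0867) did not pass there. In knockdown clones none of the 3 passed, with -0.34 for EMR2, -0.41 for GPR97 and -0.05 for GPR124. The difference in response passed its own test for GPR97 (1.89, limma adjusted p = 0.0403) and did not for EMR2 (0.86, limma adjusted p = 0.149) or GPR124 (1.77, limma adjusted p = 0.190), against 5.27% of all genes. On the spike-in scale that of GPR97 did not pass (1.18, limma adjusted p = 0.0688). The treated control arrays of each were those on the separate slide.

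**Figure D3:**
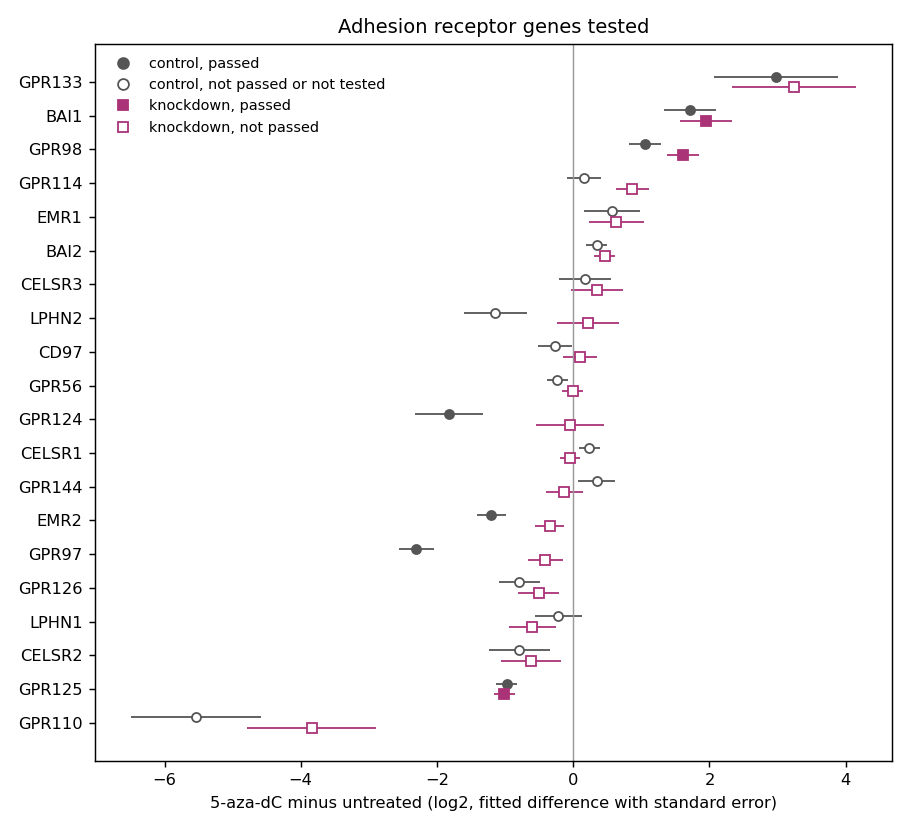
Fitted response of each adhesion receptor gene tested (5-aza-dC minus untreated, log2, horizontal axis, bars are standard errors, n = 2 clones per condition) in control clones (circles) and knockdown clones (squares). Filled symbols passed at an adjusted p below 0.05, and GPR110, which has no test in control clones, is shown at the bottom by its variant 1 probe at -5.54 and -3.84.

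Few genes around GPR110 on chromosome 6 passed after 5-aza-dC, and their balance of higher and lower depended on the processing. OPN5 and LOC100131283, counted among them, were well above background only on treated arrays. They met the filter for testing through those arrays, so their direction is not independent of it. Within 1 Mb of the GPR110 probes the array held 22 other gene names, of which 11 had a tested probe. The brightest such probe stood for each. In knockdown clones 2 rose and 0 fell (18.2% of 11), against 9.45% of all genes that rose and 3.09% that fell. In control clones 3 rose and 0 fell (27.3%), against 20.5% and 21.3%. With 11 genes, these counts are too small to set the neighbours apart from all genes. A second, dimmer probe of SLC25A27, a mitochondrial carrier, fell there by a difference of -1.97 (limma adjusted p = 0.0202), whereas its brightest probe read -0.52 and did not pass. At an unadjusted p below 0.05 in limma, 4 were higher and 3 lower in knockdown clones, against 7603 of all 27287 probes in either direction. In control clones 3 were higher and 2 lower, against 13958 of these probes. With the clone as a block the counts were 3 up and 1 down in knockdown clones and 3 up and 2 down in control clones. With normexp background correction or quantile normalization 3 rose and 1 fell in control clones, and with only probes above background on all 8 arrays 1 rose and 2 fell. With normexp or an offset of 50 the knockdown clones gave 1 up and 1 down. At an offset of 50 the control clones gave 3 up and 2 down, and with only their 4 arrays fitted, 4 up and 3 down.

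TDRD6, a germ cell protein with Tudor domains encoded 298 kb from the variant 1 probe, rose in every clone. Its log2 signal went from 6.17 to 9.09 (CONT1), 6.39 to 9.31 (CONT2), 6.63 to 8.47 (TET1-KD1) and 6.66 to 8.54 (TET1-KD2). The difference was 2.92 (SE 0.158, limma adjusted p = 9.9e-05) in control clones and 1.86 (SE 0.158, limma adjusted p = 0.000827) in knockdown clones. OPN5, an opsin 826 kb away on the other side, rose by at least 1.85-fold in control clones. It also passed in knockdown clones, but was not well above background on any array there, which leaves no fold. LOC100131283, 330 kb away, rose by at least 3.01-fold in control clones and did not pass in knockdown clones (limma adjusted p = 0.0748).
The 3 tested genes nearest to GPR110 did not pass in either kind of clone. TNFRSF21, a death receptor 232 kb away, was at -0.86 (limma adjusted p = 0.0590) in control clones and -1.04 (limma adjusted p = 0.0751) in knockdown clones. LOC100287718, at 241 kb, read -0.59 and -0.51. PLA2G7, a phospholipase at 295 kb, read -1.05 and 0.10. The closest gene names on the array, GPR116 at 146 kb and MEP1A at 165 kb, had no probe well above background.

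**Figure D4:**
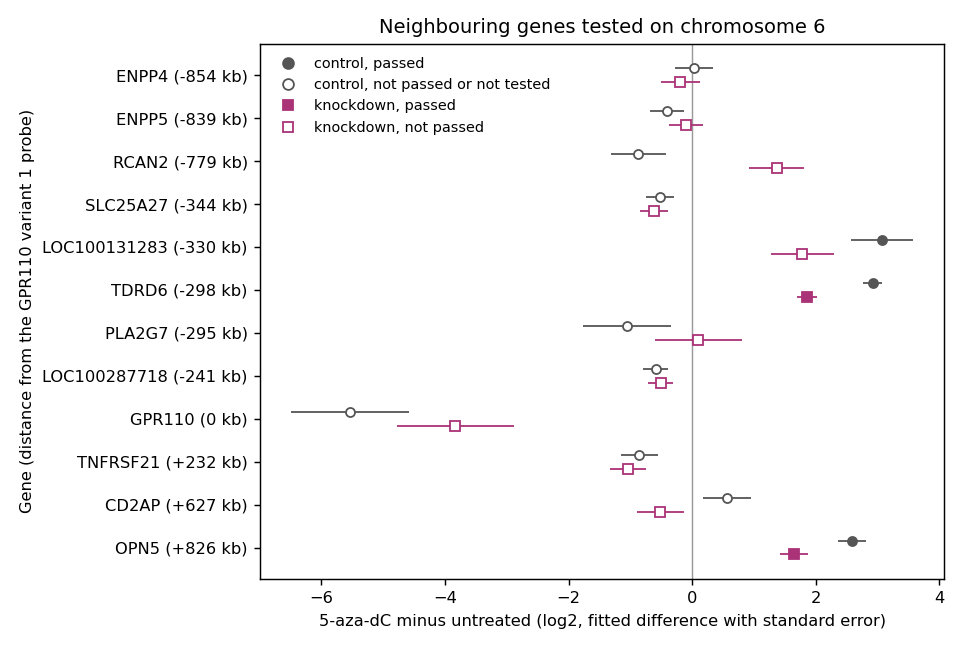
Fitted response (5-aza-dC minus untreated, log2, horizontal axis, bars are standard errors, n = 2 clones per condition) of the 11 tested genes within 1 Mb of GPR110, ordered by distance from its variant 1 probe. Circles are control clones, squares knockdown clones, and filled symbols passed at an adjusted p below 0.05. TDRD6 and OPN5 passed upward in both, and GPR110 lies at -5.54 and -3.84.

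The signaling genes downstream of the receptor were described from a list of 42 genes for G proteins, adenylyl cyclases, protein kinase A and cyclic AMP targets, all on the array, of which 36 had a tested probe. In knockdown clones 2 rose and 3 fell (13.9%), against 12.5% of all genes, and in control clones 7 rose and 8 fell (41.7%), against 41.8%. By the brightest probe of each gene, NR4A3, a nuclear receptor induced by cyclic AMP, had the largest rise in control clones, of 2.66 (SE 0.290). In knockdown clones NR4A3 rose by 1.61 (SE 0.290). FOS rose by 1.82 (SE 0.428) and DUSP1 by 1.57 (SE 0.333) in control clones, and in knockdown clones they read 1.64 and 1.16 and did not pass. NR4A1 rose by at least 2.71-fold in control clones, but it met the filter for testing only through treated arrays. PRKACB, a catalytic subunit of protein kinase A, fell in both, by a difference of -1.49 and -0.88. CRTC1, a CREB coactivator, also fell in both, with -0.88 and -0.997, though its second probe did not pass in either and the first did not pass in control clones on the spike-in scale (-0.45, limma adjusted p = 0.0747). GNAI1, an inhibitory G protein subunit, fell in control clones, with a difference of -1.67 (SE 0.444), and read -1.22 in knockdown clones (limma adjusted p = 0.136). On the spike-in scale GNAI1 did not pass in control clones (-1.21, limma adjusted p = 0.0803). PDE4C, a phosphodiesterase that breaks down cyclic AMP, rose in knockdown clones by 0.89 (SE 0.211) and read -0.02 in control clones. ATF1, a relative of CREB, rose by 0.55 in control clones and fell in knockdown clones, with a difference of -0.62, which did not pass on the spike-in scale (-0.58, limma adjusted p = 0.0929).

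For the stimulatory G protein that carries the signal of GPR110, GNAS, the brightest probe was at -0.01 in control clones and at 0.00 in knockdown clones, neither of which passed. Its other probes passed in control clones in opposite directions, at -0.69 and 1.46, so no single direction can be given. ADCY4, an adenylyl cyclase, likewise had a probe at -2.15 and a dimmer one at 3.27 in control clones.
Of 6 genes that make or break down N-acylethanolamines, the class of the GPR110 ligand, all had a tested probe. In control clones 0 rose and 2 fell (33.3%), against 41.8% of all genes, and in knockdown clones 0 of 6 passed in limma, against 12.5%. In knockdown clones 1 was lower at an unadjusted p below 0.05 in limma, against 7603 of all 27287 probes in either direction. FAAH2, which degrades these lipids, was at -1.46 and GDE1, a phosphodiesterase that releases them, at -0.93 in control clones, where neither passed on the spike-in scale (-0.77 and -0.42). Second probes of FAAH, which also degrades them, and NAAA, an acid amidase for them, fell in control clones by differences of -2.20 and -1.12, while their brightest probes, at -1.10 and -0.48, did not pass. The median response of the 6 genes was -0.92 in control clones, against -0.05 over all genes, and -0.47 in knockdown clones, against -0.06. For the pathway and ligand genes together, 7 rose and 10 fell in control clones, and 13 rose and 2 fell on the spike-in scale. These 17 became 7 or 8 without any single control array. In knockdown clones 5 passed, 2 without any single control array, 1 without the untreated TET1-KD2 array and 0 without the treated one.

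The genes whose pattern was most like that of GPR110 were sought among 6806 tested probes with a range of at least 2 on the log2 scale over the 8 arrays. By Pearson correlation with the variant 1 probe these were KRT222 (r = 0.992), PNPLA4 (r = 0.991), GNAI1 (r = 0.986), TMEM17 (r = 0.985) and PTPMT1 (r = 0.984). KRT222 is a keratin, PNPLA4 a lipase, TMEM17 a protein of the ciliary transition zone and PTPMT1 a mitochondrial phosphatase. As all points share arrays and scaling and 227 probes (3.34%) had an r above 0.9, the correlations are a description. Their responses were smaller than those of GPR110. KRT222, for example, was at -1.77 and -1.79 in CONT1 and CONT2, and at -0.92 and -1.76 in TET1-KD1 and TET1-KD2. In RefSeq 4 of the 5 genes had a promoter entry, and none of these 4 held as few CG in the 250 bases as ADGRF1.

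**Figure D5:**
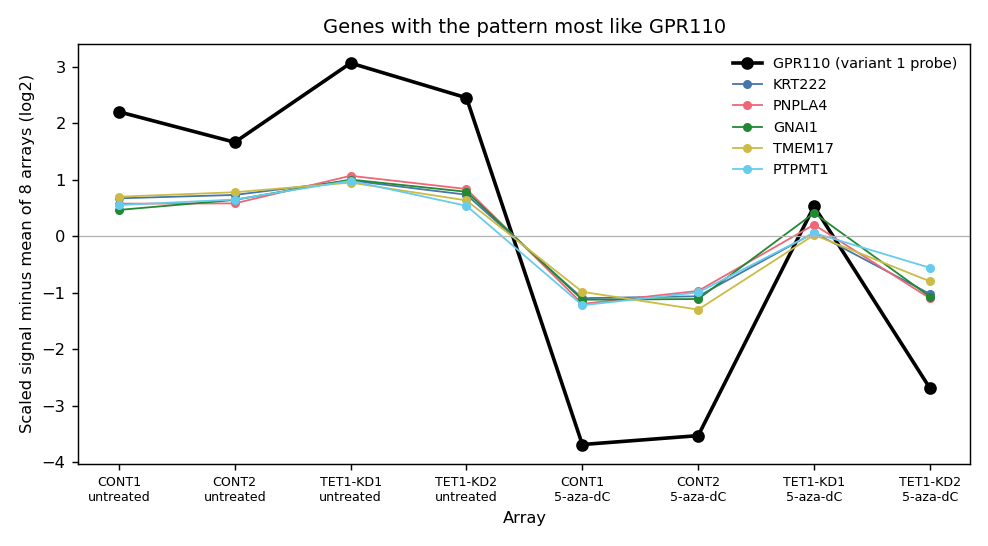
Scaled signal minus its mean over the 8 arrays (log2, vertical axis) for GPR110 (variant 1 probe, black) and the 5 genes with the most similar pattern, with the 8 arrays on the horizontal axis. All 6 lines, which were chosen for their likeness, are high on the untreated arrays and low on the treated ones, and GPR110 spans the widest range.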

How the data were processed

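Total RNA was measured on SurePrint G3 Human GE arrays with 62976 spots. The deposited values are 1-color intensity values from Feature Extraction 10.7.3.1, with background subtracted and no scaling between arrays, and the probe positions are on hg19. The authors analyzed them in GeneSpring GX. The deposited value table holds the same intensity values rounded, within 0.497%, and served as an alternative.

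Processed intensities were scaled to each array's 75th percentile, floored at 1 and converted to log2. Control spots and outlier-flagged spots were left out, saturated spots (0 found) would have been kept, and spots of a probe were averaged. A probe was well above background if at least 0.5 of its spots were, and it was tested if it was so on both arrays of at least 1 condition (27287 of 50599). limma 3.58.1 in R 4.3.3 fitted 1 mean per condition over all 8 arrays, with Benjamini-Hochberg adjustment over all probes tested and a threshold of 0.05. On simulated arrays for the knockdown response, 72.5% of 200 probes changed by 2 on the log2 scale were recovered among 27287, with 6 false calls. The simulated noise was independent between arrays and had the same spread in every condition, unlike these data. These figures therefore check the fit and do not give its performance on the real arrays. A bound ("at least") sets the bright mean against the lowest signal well above background. With 2 arrays a condition, their number limits the precision.

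Clone numbers pair the arrays, since both arrays of a number come from the same clone per the labels. Deviations from the condition means correlated within clones at r = 0.198 (control) and 0.476 (knockdown) over 27287 probes.

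GPR110 and the gene lists were chosen with earlier results of these data known. Named genes were TET1, the group VI receptors, list genes that passed in either kind of clone (up to 10 a list, by size), the 5 gene symbols most correlated with GPR110 (transcripts without a symbol skipped) and the next largest decrease. Further genes, such as GNAS, TNFRSF21, LOC100287718, PLA2G7 and MEP1A, were named after their values were seen. A leukocyte marker, with the sum that holds it, and a group VI receptor are not reported here. Sequences are from the array files and from RefSeq (GRCh38.p14). Plots were drawn with matplotlib 3.10.9.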

Additional observations from a re-analysis of the deposited data

Results flagged for a closer look

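The 5-aza-dC response differed between knockdown and control clones for 3 genes of the receptor family and its pathway, by the test of the difference itself (knockdown minus control, log2, limma over all probes, against 5.27% of all genes). These were 1 of 19 adhesion receptors, 2 of 36 pathway genes and 0 of 6 ligand genes, so a share near that of all genes. On the spike-in scale GPR97 (1.18, limma adjusted p = 0.0688) and ADCY4 (0.84, limma adjusted p = 0.0689) did not pass. GPR97 had a difference of 1.89 (SE 0.365, limma adjusted p = 0.0403), from -2.30 in control clones and -0.41 in knockdown clones. ADCY4 had a difference of 1.66 (SE 0.234, limma adjusted p = 0.0184), from -2.15 and -0.49, whereas its dimmer probe gave 0.10 (limma adjusted p = 0.935). ATF1 had a difference of -1.17 (SE 0.201, limma adjusted p = 0.0315), from 0.55 and -0.62. The treated control arrays were alone on their slide, so slide and response cannot be told apart in these differences.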

How the results depend on the processing

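Alternatives that change only the filter or the estimate of the spread cannot alter a difference. The variant 1 probe of GPR110 kept its direction in all 19 alternatives in either kind of clone. In control clones it moved beyond the spread between clones under normexp (-4.28), spike-in calibration (-4.74) and an offset of 50 (-4.59), and leaving out each array gave -5.81 to -5.27. In knockdown clones it passed under normexp (-3.44, limma adjusted p = 0.0204), the offset (-3.52, limma adjusted p = 0.0280) and the replicate block (-3.84, limma adjusted p = 0.0384). Leaving out each array gave -5.44 to -2.23, and it passed without each treated knockdown array in turn. It did not pass in the other 14 alternatives, 4 arrays alone included (limma adjusted p = 0.170). The variant 2 probe lost its call in knockdown clones under the methods' t-test, which called 0 of all 27287 probes there. It kept its call in the other alternatives that tested it on all 4 knockdown arrays. Its treated signals are only bounds, and its direction is not independent of the filter on dim probes. Knockdown minus control was 0.52 to 1.13 without each array. These alternatives and those of the pathway list were chosen after seeing the data.

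Counts of genes called moved as follows, and should be read beside those over all 27287 probes. The methods' t-test called 4163 probes in control clones and 0 in knockdown clones, so its counts of 0 there are not particular to any list. The 4 arrays alone called 12599 and 1687, and the replicate block 13746 and 4030, against 11402 and 3220 in the main fit. For adhesion receptors the methods' t-test gave 1 in control clones and 0 in knockdown clones, the 4 arrays alone 0 and the replicate block 5 in knockdown clones. Leaving out each array gave 4 to 7 and 2 to 4. For neighbours within 1 Mb, control clones gave 5 with the offset, 5 with the replicate block, 7 with the 4 arrays alone and 1 with the methods' t-test. Knockdown clones gave 1 with only probes above background on all 8 arrays, 4 with the replicate block and 0 with the methods' t-test. Leaving out each array gave 3 to 4 and 2 to 3. For the pathway and ligand lists (17 and 5), the methods' t-test gave 7 and 0, and in knockdown clones no filter on dim probes gave 2 and the 4 arrays alone 0. Leaving out each array gave 7 to 20 and 0 to 5, the lowest without the treated TET1-KD2 array. The causes were not tested. The replicate block changed no other call of GPR110. Signal over background limits the variant 2 probe, whose treated level is only a bound.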
